A study of Rattus norvegicus with 14 samples.

Results

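The genes described here are the small-molecule carriers of the mitochondrial inner membrane and the machinery that imports proteins into the organelle, measured in the soleus muscle of rats after tenotomy, the surgical cutting of the tendon, which leaves the muscle without its load. They were taken by name: every gene on the array with 1 symbol beginning with Slc25a (the mitochondrial carrier family), Tomm or Timm (translocases of the outer and inner membrane), leaving out Slc25a11, Slc25a12, Slc25a13 and Slc25a20. This gave 60 of the 14217 genes with a single symbol, made up of 36 carriers, 9 Tomm genes and 15 Timm genes. The choice was by name, with earlier results of these data known. Where several probe sets carried 1 symbol, as for 20 of these genes, the probe set with the highest mean signal stood for the gene. Of the 60, 53 passed the filter on dim signals and were tested among 11064 genes (30 carriers, 9 Tomm and 14 Timm).

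Total RNA from 14 soleus muscles of male Sprague Dawley rats was hybridised to Affymetrix arrays, 1 muscle to each array. The 4 control muscles were left soleus muscles that the labels call controls, and those of rats 61 and 62 lay opposite a tenotomised right muscle that is also in the series. The 6 short-term muscles came from rats immobilised by tenotomy for 1 week (2 arrays), 2 weeks (2), 3 weeks (1) and 4 weeks (1), and the 4 long-term muscles from rats immobilised for 6 weeks (2), 16 weeks (1) and 22 weeks (1). The labels give no age and no genetic change in any group. Every control was a left muscle and every tenotomised muscle a right one, so side and tenotomy cannot be told apart. No control came from a short-term rat, and the labels give the controls no week. Short-term tenotomy therefore cannot be told apart from any difference in age or time of sampling. The controls of rats 61 and 62 share their animals with the 6-week muscles of the long-term group. The 14 muscles came from 12 rats, and the p-values measure the spread between these muscles.

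Deposited array medians lay between 29.8 and 49.3 signal units, and the arrays correlated at 0.85 to 0.94 with each other. The first principal component of all genes tested held 55.8% of the variance and placed the 6 short-term arrays (-75.1 to -23.1) apart from the control (33.1 to 39.8) and long-term arrays (21.4 to 57.0). The poly-A spike-in signal overlapped between groups but reached higher values on short-term arrays (45.5 to 191) than on control (32.5 to 51.9) or long-term arrays (44.1 to 66.3), and the median ratio of 3′ to 5′ signal was 2.08 (control), 1.26 (short-term) and 1.48 (long-term) for Gapdh and 1.80, 2.47 and 2.09 for actin in that order. Their part in the results was not tested. Of 11 genes that mark soleus fibres, among them the slow myosin gene Myh7 and the slow troponin gene Tnni1, all 11 were tested, and their summed signal lay between 69240 and 109245 on every array.

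Nearly all mitochondrial proteins are made in the cytosol. The TOM complex of the outer membrane admits them, TIM23 passes those with a cleavable leader into the matrix, and the small TIM chaperones carry multispanning proteins across the intermembrane space to TIM22, which inserts them into the inner membrane. The Slc25 carriers are among the clients of TIM22, and they exchange nucleotides, phosphate, carboxylates, amino acids and cofactors across that membrane. Slow muscle such as soleus is rich in mitochondria.

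Most genes of the import machinery were lower in short-term tenotomised muscle than in control muscle, while carriers were called in both directions at shares not far from those over all genes. Of the 53 genes tested, 28 fell and 3 rose at an adjusted p under 0.05 (limma), where 26.6% of all genes tested fell and 17.9% rose. Among Tomm and Timm genes 19 of 23 fell and 0 rose, with a median log2 change of -0.70. This counts Timm29 by its brighter probe set; with the mean of all probe sets of each gene Timm29 was called higher, and 18 fell and 1 rose. Among carriers 9 of 30 fell (30%) and 3 rose (10%), with a median of -0.44, and shares so near to those over all genes are no result about the carriers. The median over the 53 was -0.52, against -0.12 over all genes, a gap of -0.40. Arrays can be scaled in other ways, and under the 6 scalings tried the median gene moved between -0.34 and 0.04. The gap of the 53 to it lay between -0.38 and -0.40. All scalings but quantile normalization shift every gene of an array alike, so the gap could hardly move under them. Its constancy there is no support for the fall. With quantile normalization the gap was -0.38. Of all genes called, 59.8% were lower, and 74.5% on the deposited scale, 76.3% with all probe sets at a common median and 44.2% with a common trimmed mean. Under all 6 scalings 21 of the 53 were called lower (16.7% of all genes) and 2 higher (9.87% of all genes). The short-term and control arrays did not overlap for 21 of the 53 in the lower direction (19% of all genes) and for 3 in the higher (11.7% of all genes). In a bulk sample, fewer cells of a type and less RNA per cell cannot be told apart.

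**Figure D1:**
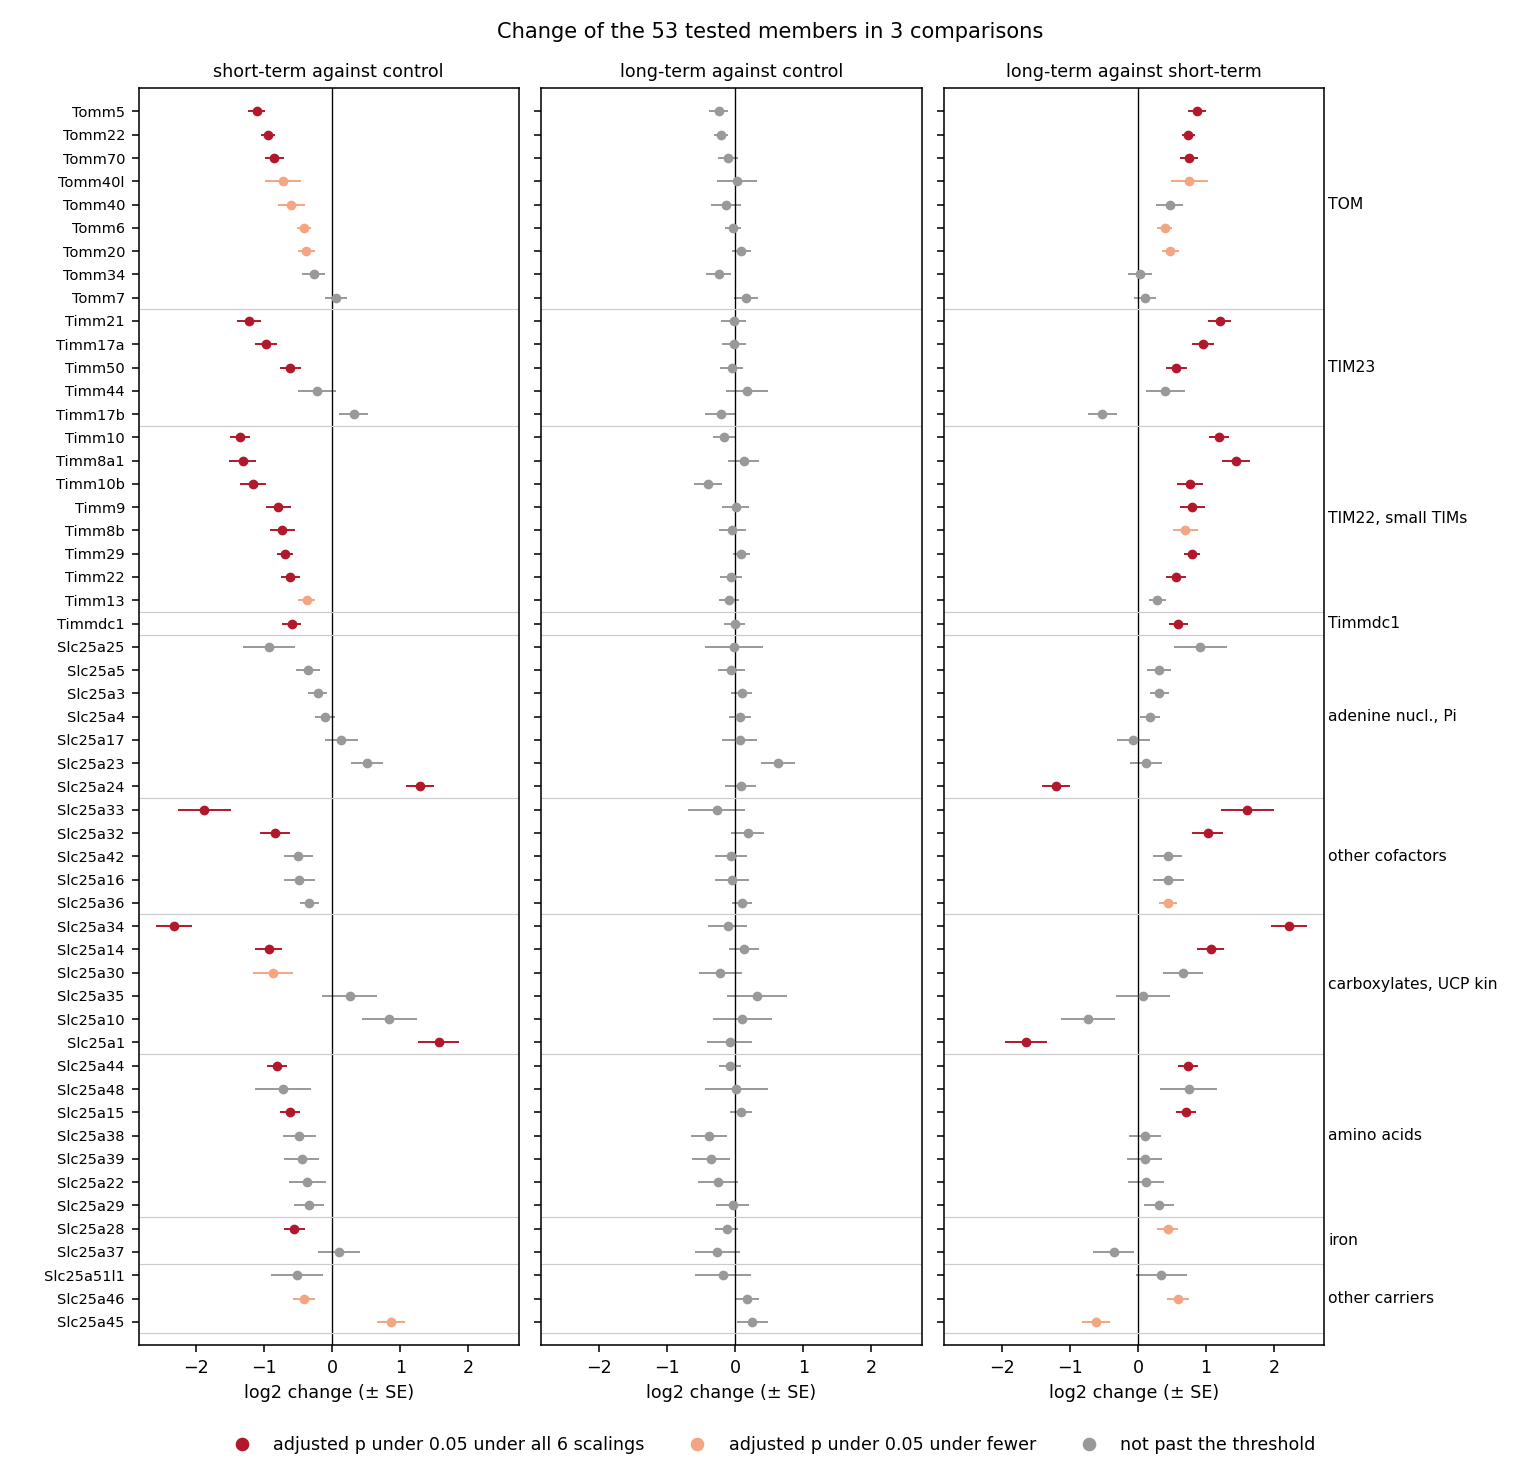
Log2 change (horizontal axis; points are single genes, bars ± SE) of the 53 genes tested, by role, in 3 panels for short-term against control, long-term against control and long-term against short-term; dark red marks an adjusted p under 0.05 under all 6 scalings, light orange one under 0.05 in the fit but not under all 6 scalings, and grey the rest. Short-term against control, 28 genes were called lower and 3 higher, Tomm and Timm genes lying between -1.35 and 0.31 and carriers between -2.33 and 1.57; between long-term and control no gene is coloured, and long-term against short-term 26 were called higher and 3 lower.

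Promoters were set beside these changes because so many import genes fell together. RefSeq sequence (GRCr8) from 250 bases before to 50 bases after the gene start was at hand for 52 of the 60 genes and was searched on both strands for 3 motifs. The letters CCGGAAG, or their reverse complement CTTCCGG, bound by GABP and other ETS factors, were present in 13 of the 52 (25%), in 8 of 22 Tomm and Timm promoters (36.4%) and in 5 of 30 carrier promoters (16.7%), against 15.1% of 11733 promoters of genes on the array and 9.22% of all 27457. AAGGTCA, or TGACCTT in reverse complement, a single ESRRA recognition element, was in 3 of the 52 (5.77%), against 3.14% of promoters of genes on the array and 4.37% of all. The palindromic NRF1 site was in 1 of the 52, Tomm7 (1.92%), against 1.62% and 0.932%. A total of 36 of the 52 held none of these letters. Matches of the ETS letters on both strands overlap by several bases at Timm10 and at Tomm22. The 250 bases before the start are shown for 4 genes, 5′ to 3′, with matches in capitals: for Timm10 and Tomm22, which fell, with repeated ETS letters; for Timm8b, which fell, with ETS letters and the ESRRA element; and for Slc25a34, the carrier with the lowest log2 change, with the ESRRA element. A further ETS match of Tomm22 runs across its start and is not in capitals. All 4 genes fell and hold a match, and they do not stand for the 52.
Timm10 (chr3:90314889-90315138, plus strand): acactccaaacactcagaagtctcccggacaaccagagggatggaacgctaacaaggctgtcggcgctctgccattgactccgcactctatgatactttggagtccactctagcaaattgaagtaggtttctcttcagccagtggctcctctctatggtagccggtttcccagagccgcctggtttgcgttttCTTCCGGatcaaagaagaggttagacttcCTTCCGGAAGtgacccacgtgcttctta
Tomm22 (chr7:113107056-113107305, plus strand): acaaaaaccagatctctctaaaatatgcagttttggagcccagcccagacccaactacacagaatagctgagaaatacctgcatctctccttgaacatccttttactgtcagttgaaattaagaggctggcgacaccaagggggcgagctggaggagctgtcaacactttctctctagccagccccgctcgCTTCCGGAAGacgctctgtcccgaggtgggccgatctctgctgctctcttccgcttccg
Timm8b (chr8:59850487-59850736, plus strand): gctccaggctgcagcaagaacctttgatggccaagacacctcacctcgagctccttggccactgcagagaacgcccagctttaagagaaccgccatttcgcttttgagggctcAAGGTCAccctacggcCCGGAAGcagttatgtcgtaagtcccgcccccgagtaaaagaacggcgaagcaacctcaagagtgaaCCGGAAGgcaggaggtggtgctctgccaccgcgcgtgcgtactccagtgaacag
Slc25a34 (chr5:159219893-159220142, minus strand): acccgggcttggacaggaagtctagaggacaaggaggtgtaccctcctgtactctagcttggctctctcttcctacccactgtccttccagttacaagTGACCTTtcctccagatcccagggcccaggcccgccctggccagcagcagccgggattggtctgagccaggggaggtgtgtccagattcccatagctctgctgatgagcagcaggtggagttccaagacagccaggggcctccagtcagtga
A match describes the letters in this window and does not show that a factor binds there.

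Of the TIM22 channel and the small TIM chaperones, 8 of 8 genes tested fell by their brightest probe sets, with a median log2 change of -0.76. With the mean of all probe sets of each gene 7 fell and 1, Timm29, rose. The call held for 7 of the 8 under all 6 scalings. Timm10 and Timm9 encode partners in the hexameric chaperone of the intermembrane space. The scaled signal of Timm10 was 2914, 2856, 3502 and 2536 on the control arrays, and the lowest, median and highest of the short-term arrays were 882, 1221 and 1389. Every short-term array was thus below every control array, and the log2 change was -1.35 (SE 0.15, limma adjusted p = 1.38e-05), or 2.56-fold lower. Timm9 read 534, 398, 470.4 and 441 on the control arrays, and the lowest, median and highest of the short-term arrays were 201, 252 and 384. Its groups did not overlap either, with a log2 change of -0.79 (SE 0.18, limma adjusted p = 0.00284).

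Timm8a1 encodes the rat counterpart of the protein lost in human deafness-dystonia syndrome, and works as a chaperone together with Timm13. The signal of Timm8a1 was 783, 571, 679 and 590.1 on the control arrays, and the lowest, median and highest of the short-term arrays were 159, 286 and 347. Its log2 change was -1.32 (SE 0.20, limma adjusted p = 1.59e-04), with no overlap between the groups. Timm10b, the small TIM protein docked on the TIM22 channel, gave 356, 415, 468 and 277 on the control arrays, and the lowest, median and highest of the short-term arrays were 123, 169.5 and 224. It fell by 1.17 on the log2 scale (SE 0.19, limma adjusted p = 2.02e-04), again without overlap. Timm22, the channel itself, read 349.7, 309.7, 356 and 386 on the control arrays, and the lowest, median and highest of the short-term arrays were 194, 219 and 303. The highest short-term value stayed just under the lowest control value, and the log2 change was -0.62 (SE 0.14, limma adjusted p = 0.00287). Timm29, a subunit of the TIM22 complex, gave -0.70 (SE 0.11, limma adjusted p = 2.35e-04) with its brighter probe set. The other, dimmer Timm29 probe set went the other way, with a log2 change of 1.88 (limma adjusted p = 0.00105), so the direction of this gene depends on the probe set. Timm8b (-0.73) and Timm13 (-0.38) also fell, both with overlapping groups, and Timm13 was not called under every scaling or with every array left out in turn.

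Of the TIM23 channel and its motor, 3 of 5 genes tested fell and 2 were not called. Timm21, which joins TIM23 to the TOM complex and to the respiratory chain, read 1471, 1401, 1517 and 1435 on the control arrays, and the lowest, median and highest of the short-term arrays were 453, 659.9 and 839. Its short-term values were all below its control values, and the log2 change was -1.23 (SE 0.17, limma adjusted p = 7.55e-05). Timm17a, a channel subunit, read 2299, 2310, 2240 and 2035 on the control arrays, and the lowest, median and highest of the short-term arrays were 769, 1188 and 1467. This was 1.97-fold lower in short-term muscle without overlap (log2 change -0.98, SE 0.16, limma adjusted p = 2.18e-04). Timm17b, the paralogue of Timm17a, lay the other way but was not called (log2 change 0.31, 95% interval -0.14 to 0.77, limma adjusted p = 0.243). Timm50, the receptor that takes over precursors from TOM, read 392, 447, 445 and 382 on the control arrays, and the lowest, median and highest of the short-term arrays were 223, 267 and 339. It fell with a log2 change of -0.62 (SE 0.15, limma adjusted p = 0.00442), with no overlap. Timm44, which tethers the Hspa9 motor to the channel, read 37.8, 70.1, 91.2 and 75.8 on the control arrays, and the lowest, median and highest of the short-term arrays were 35.1, 59.1 and 77.6. These ranges overlapped widely, and the log2 change of -0.23 (95% interval -0.82 to 0.37) was not called. Timmdc1, named for a TIMM domain and known as an assembly factor of respiratory complex I, fell by 0.60 on the log2 scale (limma adjusted p = 0.00283). Timm23, the main channel subunit, has no value here because its probe set carries more than 1 symbol.

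Of 9 TOM genes tested, 7 fell, and the median log2 change was -0.60. For 3 of the 7 the call held under all 6 scalings. Tomm22 is the central receptor that holds the complex together. Its signal was 1712, 1612, 1917 and 1856 on the control arrays, and the lowest, median and highest of the short-term arrays were 812, 936 and 975. The groups were well apart, and the log2 change of -0.95 (SE 0.10, limma adjusted p = 1.11e-05) had the smallest adjusted p of the 53 genes. Tomm5, a small subunit at the channel, read 2025, 2064, 2282 and 1635 on the control arrays, and the lowest, median and highest of the short-term arrays were 830.0, 923 and 1004. Its log2 change was -1.11 (SE 0.13, limma adjusted p = 2.45e-05), without overlap. Tomm70, the receptor for carriers and other precursors with internal signals, read 1348, 1225, 1369 and 1171 on the control arrays, and the lowest, median and highest of the short-term arrays were 583, 716 and 830.4. It was 1.81-fold lower without overlap (log2 change -0.85, SE 0.13, limma adjusted p = 1.83e-04).

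The presequence receptor Tomm20 and the channel Tomm40 fell less clearly. Tomm20 read 3088, 3132, 3061 and 3050 on the control arrays, and the lowest, median and highest of the short-term arrays were 1963, 2330 and 3113. A 1-week array, at 3113, lay within the control range, and the log2 change was -0.38 (SE 0.13, limma adjusted p = 0.0228). Another Tomm20 probe set gave -0.70. Tomm40 read 410.0, 564, 501 and 346 on the control arrays, and the lowest, median and highest of the short-term arrays were 205, 294 and 398. Here too the groups overlapped, with a log2 change of -0.60 (SE 0.20, limma adjusted p = 0.0211), and neither Tomm20 nor Tomm40 was called under every scaling or with every array left out in turn. The small subunit Tomm6 (-0.42) and the Tomm40 paralogue Tomm40l (-0.72, limma adjusted p = 0.0388) were also called lower, but the Tomm40l call was lost on leaving out any 1 of 7 arrays, with a limma adjusted p of up to 0.136. Tomm7, a small subunit that was not called, had a log2 change of 0.06 (95% interval -0.28 to 0.39, limma adjusted p = 0.799), and its short-term signals of 1870 to 3418 enclosed its control signals of 2024 to 2548. Tomm34, a cytosolic co-chaperone, was not called either (log2 change -0.27, 95% interval -0.64 to 0.09).

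**Figure D2:**
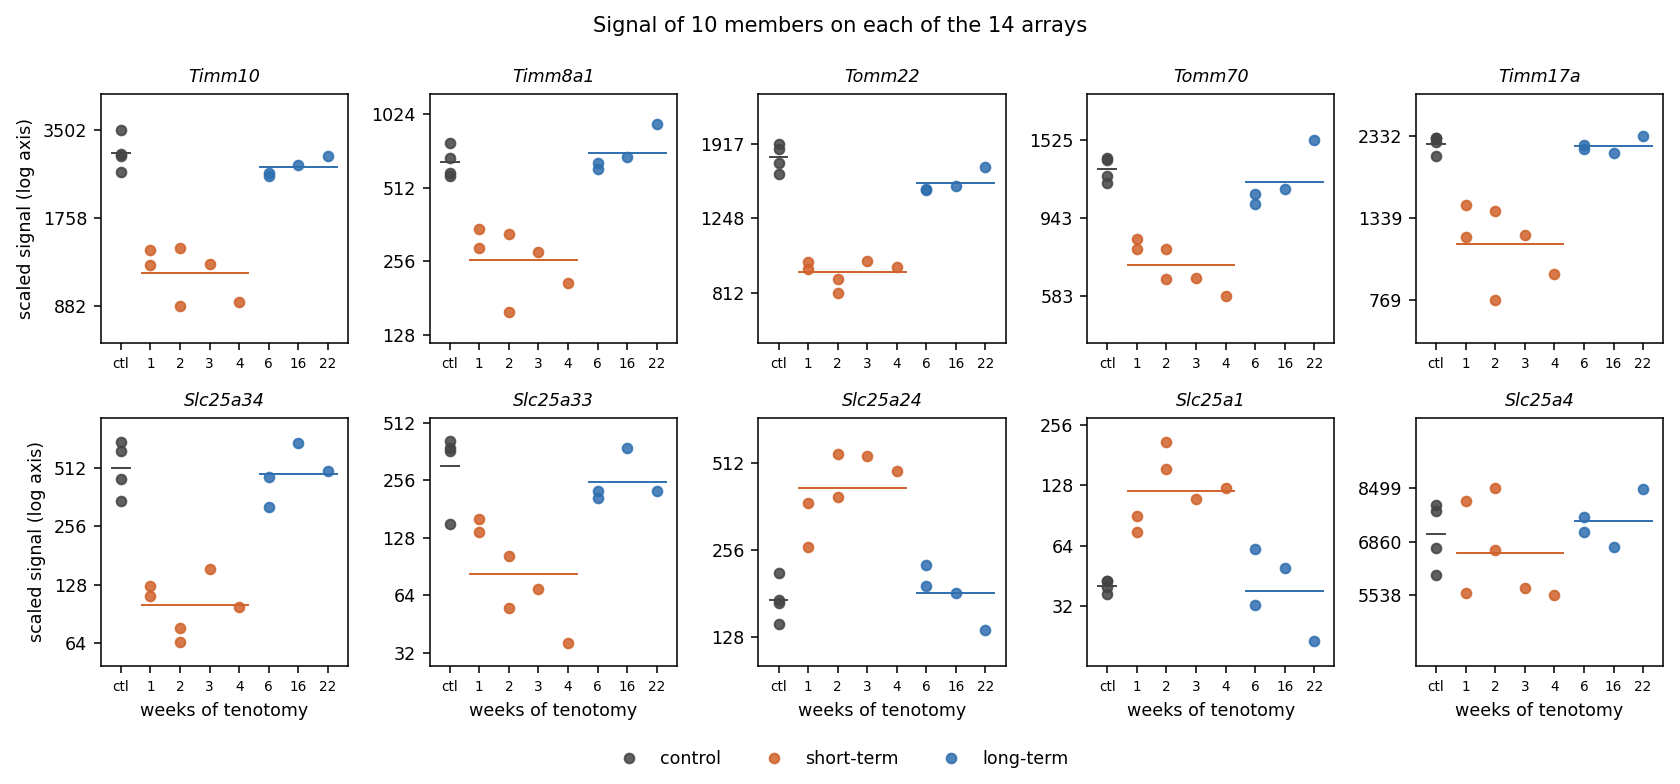
Scaled signal (log axis) of 10 genes on each of the 14 arrays, by weeks of tenotomy, with each point 1 muscle and each horizontal line the mean of the log2 signals of a group (grey control, orange short-term, blue long-term). Short-term arrays lie below all control arrays for Timm10 (882 to 1389 against 2536 to 3502) and Tomm22 (812 to 975 against 1612 to 1917), above them for Slc25a24 (263 to 550 against 143 to 213), and among them for Slc25a4.

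Carriers with the largest falls belonged to several branches of the family. Slc25a34, whose substrate is not firmly settled and which is grouped here with the carboxylate carriers, read 449.8, 696, 624 and 346 on the control arrays, and the lowest, median and highest of the short-term arrays were 65.0, 105 and 154. Every short-term value was below every control value, 5.04-fold lower on average, with a log2 change of -2.33 (SE 0.26, limma adjusted p = 2.04e-05). Slc25a33, a carrier of pyrimidine nucleotides, read 364, 377, 409.7 and 152 on the control arrays, and the lowest, median and highest of the short-term arrays were 36.3, 86.1 and 161.6. Control replicate 4, at 152, fell within the short-term range, and the log2 change was -1.88 (SE 0.38, limma adjusted p = 0.00119). Slc25a14, a relative of the uncoupling proteins, read 144, 128, 180.0 and 144 on the control arrays, and the lowest, median and highest of the short-term arrays were 59.9, 80.4 and 85.1. It fell without overlap, with a log2 change of -0.94 (SE 0.20, limma adjusted p = 0.00176). Slc25a32, the carrier linked to folate and flavin, read 55.3, 59.9, 67.1 and 72.9 on the control arrays, and the lowest, median and highest of the short-term arrays were 26.9, 35.1 and 49.3. It too fell without overlap (log2 change -0.84, SE 0.22, limma adjusted p = 0.00667), but with the mean of its probe sets the log2 change was -0.20 and was not called (limma adjusted p = 0.508).

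Other carriers called lower were Slc25a30 (-0.88), another uncoupling protein relative, Slc25a44 (-0.81), which carries branched-chain amino acids, Slc25a15 (-0.62), the ornithine carrier of the urea cycle, Slc25a28 (-0.56), a mitochondrial iron importer, and Slc25a46 (-0.42), a family member of the outer membrane. The values in brackets are log2 changes. Slc25a44 and Slc25a15 did so without overlap and under all 6 scalings, whereas Slc25a30 lost the call on leaving out either of 2 single arrays and Slc25a46 on leaving out any of 11.

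Carriers that rose were fewer. Slc25a24, a calcium-regulated carrier of ATP-Mg and phosphate, read 171, 143, 213 and 168 on the control arrays, and the lowest, median and highest of the short-term arrays were 263, 434 and 550.0. Every short-term array exceeded every control array, 2.44-fold on average (log2 change 1.29, SE 0.21, limma adjusted p = 2.08e-04). Slc25a1, the citrate carrier that supplies cytosolic acetyl groups for lipid synthesis, read 36.7, 42.7, 42.8 and 39.7 on the control arrays, and the lowest, median and highest of the short-term arrays were 74.9, 116 and 209. It rose 2.96-fold without overlap (log2 change 1.57, SE 0.30, limma adjusted p = 7.84e-04). Slc25a45, whose substrate is less well settled, rose without overlap by 0.86 on the log2 scale (limma adjusted p = 0.00369), but not under every scaling.

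The carriers of the bulk exchange of ATP, ADP and phosphate were not called in the fit, and whether they are called depends on the scaling. Slc25a4, the muscle ADP/ATP carrier, read 6701, 7759, 7962 and 6007 on the control arrays, and the lowest, median and highest of the short-term arrays were 5538, 6157 and 8499. The short-term range enclosed the control values, with a log2 change of -0.10 (95% interval -0.42 to 0.21, limma adjusted p = 0.587). Across scalings it ran from -0.33, with all probe sets at a common median, to 0.06, and it was called lower on the deposited scale (-0.30, limma adjusted p = 0.0395). Slc25a5, another ADP/ATP carrier, read 2058, 1848, 2993 and 1736 on the control arrays, and the lowest, median and highest of the short-term arrays were 1334, 1708 and 1928. Its log2 change was -0.36 (95% interval -0.74 to 0.01, limma adjusted p = 0.109), and it was called lower on the deposited scale (-0.56, limma adjusted p = 0.0334) and with all probe sets at a common median (-0.59, limma adjusted p = 0.0192). Slc25a3, the phosphate carrier, read 6426, 7211, 6720 and 5633 on the control arrays, and the lowest, median and highest of the short-term arrays were 4665, 5283 and 6987. Its log2 change was -0.22 (95% interval -0.52 to 0.08, limma adjusted p = 0.221), and it was called lower under the same scalings (-0.41 and -0.44, limma adjusted p = 0.00773 and 0.0113) and without the 2 arrays of highest poly-A signal (-0.37, limma adjusted p = 0.014). On these scalings the median gene also lay lower, at -0.31 and -0.34. Slc25a25, another ATP-Mg and phosphate carrier, lay lower without overlap (short-term 83.9 to 129.96, control 148, 492, 151 and 148), with control replicate 2 far above the other control arrays, and it was not called (log2 change -0.93, limma adjusted p = 0.0616). Without control replicate 2 its log2 change was -0.50 (limma adjusted p = 0.264). With the rat as a random block, Slc25a25 and Slc25a36 were called as well and no call was lost. Slc25a23, of the same branch, had a brighter probe set at 0.51 that was not called and a dimmer one at -1.38 that was, so no direction is given for it.

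The other carriers were not called, with log2 changes from -0.93 (Slc25a25) to 0.84 (Slc25a10). Among carriers of nucleotides and cofactors these were Slc25a42, the coenzyme A carrier (-0.50, limma adjusted p = 0.0677), Slc25a16 (-0.49), the pyrimidine nucleotide carrier Slc25a36 (-0.34, limma adjusted p = 0.0543) and the peroxisomal carrier Slc25a17 (0.13). Among carriers of amino acids and glutathione values were below 0 but not called for the glutamate carrier Slc25a22 (-0.37) and the basic amino acid carrier Slc25a29 (-0.34). The same held for the glycine carrier Slc25a38 (-0.49) and the glutathione carrier Slc25a39 (-0.45). Slc25a48 (-0.72), only grouped here with these carriers, was not called either and was at the floor on several arrays. The dicarboxylate carrier Slc25a10 had a wide 95% interval of -0.01 to 1.68, and Slc25a35 (0.25), the iron importer Slc25a37 (0.10) and Slc25a51l1 (-0.52) stayed within overlapping ranges.

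Some of these genes have further probe sets. Among those above the filter on all 14 arrays, log2 changes were -1.41 for Timm8a1, -0.81 for Tomm70, -0.68 for Timm10b, -0.55 for Timm22, -1.20 for Slc25a30, -1.41 for Slc25a46 and -0.75 for Slc25a36, each called by limma with an adjusted p under 0.05. For Slc25a36 this differs from the brighter probe set, which was not called. A further Slc25a44 probe set at -0.29 and a Slc25a39 one at 0.17 were not called, and of the further Slc25a15 probe sets 1 was called, at -0.99. A dim Slc25a32 probe set at 0.44 was not called.

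Genes that work beside the import machinery mostly moved the same way. Their list, like the lists and markers below, was chosen with earlier results of these data known. It is therefore no independent support for the fall of the import genes. Of 21 import partners tested from a list of 23, 19 fell and 0 rose, against 26.6% and 17.9% of all genes, with a median log2 change of -0.74. They included Hspa9, the matrix Hsp70 that pulls precursors through TIM23, at -1.49 (SE 0.20, limma adjusted p = 7.29e-05), its nucleotide exchange factor Grpel1 at -1.11 (SE 0.15, limma adjusted p = 7.39e-05), and Pmpcb, the catalytic subunit of the presequence protease, at -1.04 (SE 0.13, limma adjusted p = 4.13e-05). Oxa1l, the insertase of the inner membrane, fell by 0.95 and Samm50, which inserts outer membrane barrels, by 0.74 on the log2 scale. Gfer, the oxidase that recharges the intermembrane space import route, had a log2 change of -0.27 and was not called, nor was Grpel2 (-0.47).

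Of 15 further carriers and channels tested, 9 fell and 3 rose, with a median log2 change of -0.54. Of all genes 26.6% fell and 17.9% rose, so the share of this list that rose is near that over all genes. The pyruvate carrier subunits Mpc1 (-0.96) and Mpc2 (-0.86), the channels Vdac1 (-0.54) and Vdac2 (-0.61), and Ucp3 (-1.59), the uncoupling protein of muscle, were among the 9. Those that rose were Ucp2 (1.10), an uncoupling protein common in immune cells, Sfxn1 (1.58), a serine transporter, and its relative Sfxn3 (1.29). Of 7 genes of cristae organisation 5 fell, with the MICOS subunits Chchd3 at -1.41 and Apoo at -1.35 and a median of -0.63.

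Markers of other cell types moved at the same time. The counts below stand beside 17.9% of all genes that rose and 26.6% that fell. Of 9 fibroblast and matrix markers 8 rose (median log2 change 1.65), and their summed signal was 10684 to 15294 on control, 36313 to 63841 on short-term and 4351 to 18280 on long-term arrays. Of 10 macrophage markers 9 rose (median 1.81), with sums of 783 to 1548, 2535 to 5613 and 434 to 1656 in the same order. Of 11 soleus fibre markers 0 rose and 1 fell, the calsequestrin gene Casq2 (-1.003), and their median log2 change was -0.01. That median hides a split between short-term arrays. The median difference from the control mean was -0.28, -0.30 and -0.31 on replicates 1, 5 and 6, with all 11 markers below it. On replicates 2, 3 and 4 it was 0.29, 0.31 and 0.22. Control arrays lay between -0.22 and 0.15, and long-term arrays between -0.04 and 0.30. Adipocyte markers overlapped between groups: 1 of 6 tested rose, the sums were 2446 to 3911, 2459 to 6262 and 1861 to 4003, and Lep was at the floor on every array. Of 5 endothelial markers 1 fell, Kdr (-0.75), with sums of 2196 to 2711, 1801 to 3506 and 2228 to 3080. Of 2 brown adipocyte markers tested 1 fell, Cidea (-1.08). The part that these cell types had in the changes of carriers and import genes was not tested.

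**Figure D3:**
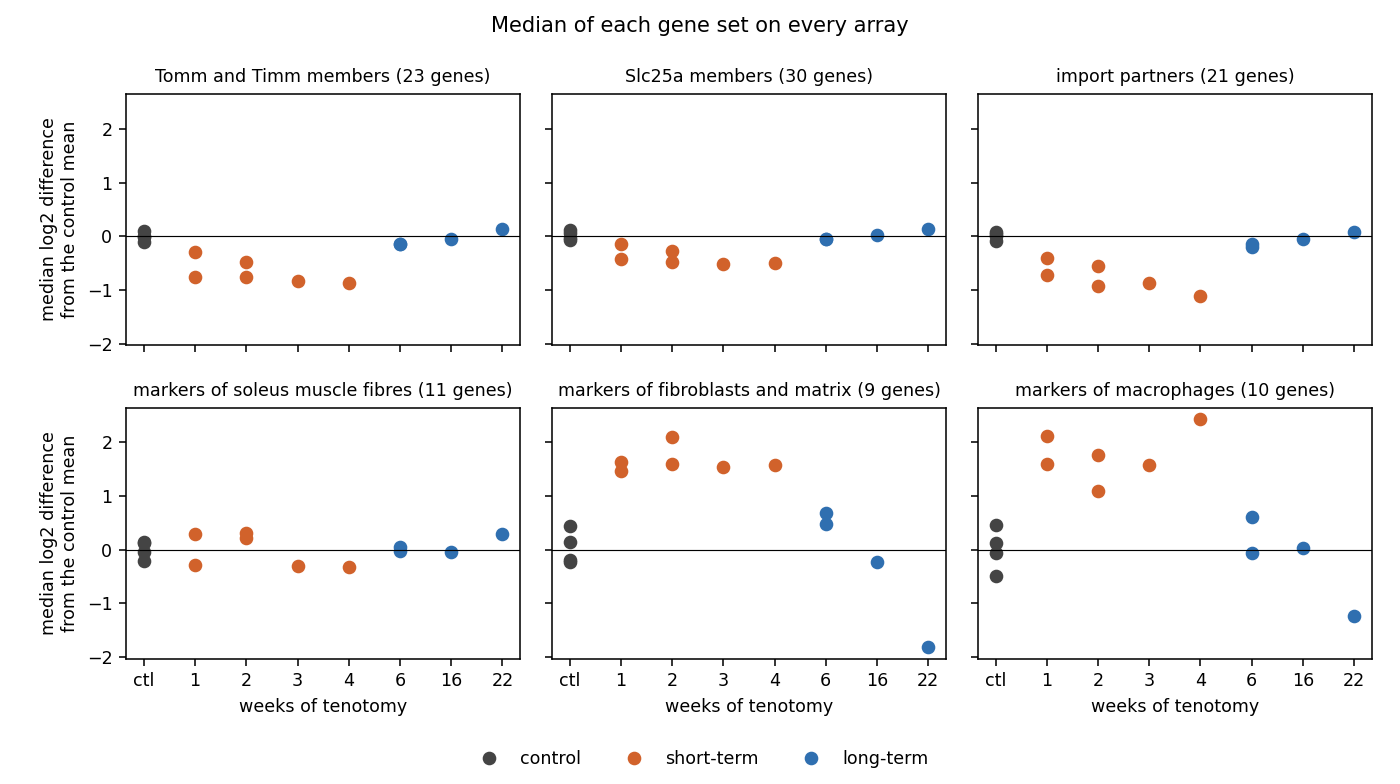
Median log2 difference from the control mean on each array for Tomm and Timm genes, carriers, import partners and cell type markers, 1 panel per set, by weeks of tenotomy, with 1 point per array (grey control, orange short-term, blue long-term) and a line at 0. For Tomm and Timm genes the short-term arrays lie between -0.88 and -0.29, the control arrays between -0.12 and 0.10 and the long-term arrays between -0.15 and 0.13, while fibroblast and macrophage markers on short-term arrays lie between 1.47 and 2.10 and between 1.11 and 2.44.

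The fall was present at 1 week. At 1 week (2 arrays) 17 of the 53 genes were called lower and 3 higher, against 14% and 9.46% of all genes, and at 2 weeks (2 arrays) 23 and 2, against 21.9% and 16.2%. Of all genes called, 59.6% were lower at 1 week and 57.4% at 2 weeks, and the scalings moved these shares to between 46.7% and 82.3%, and between 44.5% and 86.8%. Each count rests on 2 arrays: the count of lower genes at 1 week was 5 without short-term replicate 1 and 11 without replicate 2, and at 2 weeks it was 12 without replicate 4. The median log2 difference of the 53 from the control mean was -0.35 at 1 week, -0.45 at 2 weeks, -0.73 at 3 weeks and -0.74 at 4 weeks, the last of these times with 1 array each, against -0.08, -0.09, -0.17 and -0.17 over all genes. Timm10 stood at -1.18, -1.41, -1.26 and -1.69 at these times, and Tomm22 at -0.90, -1.07, -0.86 and -0.91. Both were low from the start, and both were called at 1 and 2 weeks. Slc25a33 stood at -1.03, -2.01, -2.14 and -3.06, was not called at 1 week (limma adjusted p = 0.0727) and was called at 2 weeks (limma adjusted p = 0.00275). Slc25a35, a carrier without a settled substrate that is named after its values were seen, was called higher at 1 week (1.40, limma adjusted p = 0.0174), a call lost on leaving out either 1-week array (limma adjusted p = 0.0856 and 0.112), whereas at 2 weeks it stood at -0.08 (limma adjusted p = 0.872) and at 3 and 4 weeks at -0.51 and -0.62. The difference between weeks was not tested.

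**Figure D4:**
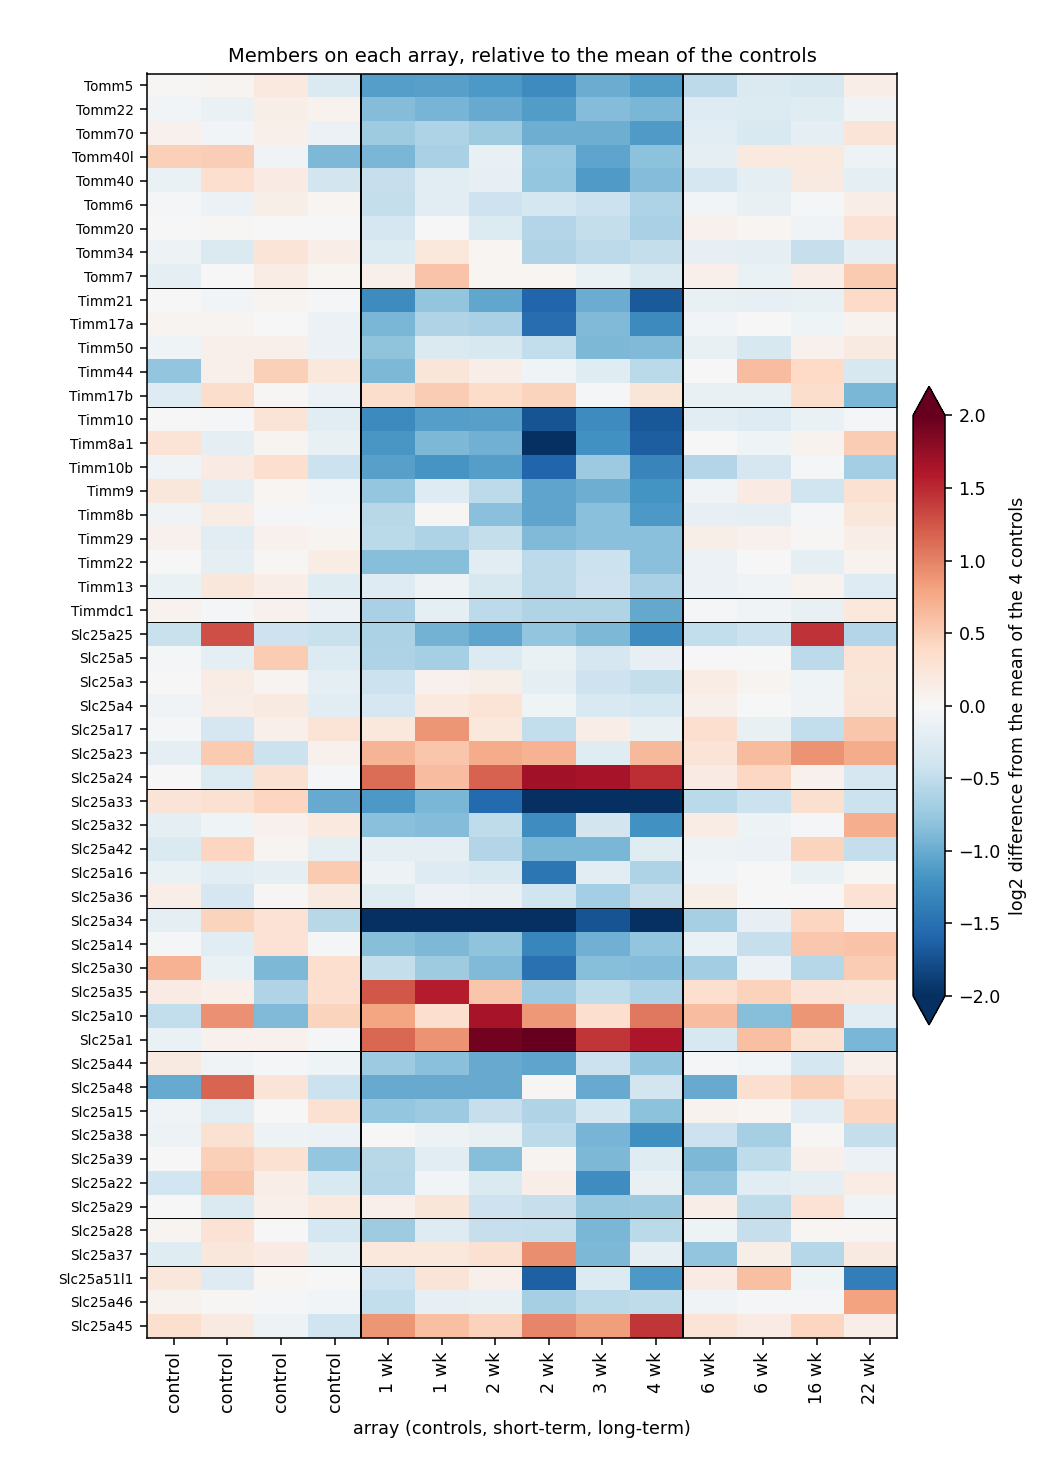
Log2 difference of each of the 53 genes from its control mean on each array, arrays ordered by group and week and genes by role, blue for lower and red for higher, with the colour scale ending at -2 and 2. Taken as the mean of each week, values below the control mean are found for 42 to 48 of the 53 genes at weeks 1 to 4, against 54.7% to 60.2% of all genes. At weeks 6, 16 and 22 they are found for 35, 28 and 20, against 50.5%, 55.1% and 45.5% of all genes.

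Long-term muscle differed from short-term muscle in the opposite direction. Of the 53 genes 26 were higher and 3 lower in long-term than in short-term muscle, against 26.2% and 17.4% of all genes, with a median log2 difference of 0.46 against 0.12 over all genes. Under all 6 scalings 19 were higher (15.3% of all genes) and 2 lower (10.7% of all genes). Of all genes called, 39.8% were lower, and 22.1% with all probe sets at a common median and 57.3% with a common trimmed mean. Of 23 Tomm and Timm genes 17 were higher and 0 lower, or 16 and 0 with the mean of all probe sets of each gene. This contrast shares its short-term arrays with the one above, so they are not independent of each other.

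Timm8a1 read 646, 611, 684 and 928 on the long-term arrays, all above its short-term maximum of 347, and the log2 difference was 1.44 (SE 0.20, limma adjusted p = 1.16e-04). Timm10 read 2515, 2457, 2675 and 2858, Timm21 1306, 1295, 1307 and 1888 and Timm17a 2134, 2199, 2087 and 2332. None of these arrays overlapped with the short-term ones, and the log2 differences were 1.19, 1.20 and 0.96 (limma adjusted p = 5.04e-05, 1.16e-04 and 2.92e-04). Among the receptors and channels, Tomm22 read 1480, 1465, 1505 and 1680 (log2 difference 0.74), Tomm70 1098, 1032, 1132 and 1525 (0.74) and Tomm5 1389, 1633, 1597 and 2183 (0.87), each called and without overlap. Tomm20 (0.47), Timm50 (0.56), Timm9 (0.80), Timm22 (0.56) and Timm29 (0.79) were called higher too, the last of them by its brighter probe set, and Tomm20 not under every scaling, while the other Timm29 probe set was lower (-1.42). Tomm40 (0.46, limma adjusted p = 0.066) and Timm44 (0.40, limma adjusted p = 0.26) were not called. Tomm40 was called in 7 of 27 other settings, among them the rat as a random block (0.52, limma adjusted p = 0.0348), and Timm44 with all probe sets at a common median (0.65, limma adjusted p = 0.0422).

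Slc25a34 read 321, 457, 686 and 494 on the long-term arrays, with a log2 difference from short-term of 2.22 (SE 0.26, limma adjusted p = 4.05e-05). Slc25a33 read 208, 225, 379 and 225 (1.61, limma adjusted p = 0.00352), Slc25a14 134, 108, 215 and 220.4 (1.07, limma adjusted p = 7.38e-04) and Slc25a32 70.2, 58.8, 62.03 and 104 (1.02, limma adjusted p = 0.00193). All 4 carriers were above their short-term ranges on every long-term array, but the Slc25a32 call was lost with the mean of its probe sets (0.41, limma adjusted p = 0.165). The genes that had risen were lower again: Slc25a24 read 192, 228, 182 and 136 (log2 difference -1.21, SE 0.21, limma adjusted p = 3.60e-04) and Slc25a1 32.3, 61.5, 49.7 and 21.4 (log2 difference -1.65, SE 0.30, limma adjusted p = 5.88e-04). Slc25a4 (0.18, 95% interval -0.13 to 0.49), Slc25a5 (0.30, -0.07 to 0.68) and Slc25a3 (0.31, 0.01 to 0.61) were not called, but each was called higher under at least 1 other scaling. Of the 21 import partners 20 were higher in long-term muscle, against 26.2% of all genes. Of the 10 macrophage and 9 fibroblast markers 9 and 9 were lower, against 17.4% of all genes.

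Between long-term and control muscle no gene was called by limma, 0 of the 53 and 0 of all 11064 (0%). At an unadjusted p under 0.05 there were 246 genes (2.22%), and 1 of the 53, Slc25a23, at 0.63 (95% interval 0.09 to 1.17). This is the Slc25a23 probe set that is brighter on average. Its other probe set gave 0.16 (SE 0.34). The median log2 difference of the 53 was -0.04. The 95% interval of the difference was -0.50 to 0.18 for Timm10, -0.44 to 0.02 for Tomm22, -0.35 to 0.59 for Timm8a1, -0.84 to 0.03 for Timm10b, -0.72 to 0.50 for Slc25a34, -1.16 to 0.62 for Slc25a33, -0.40 to 0.56 for Slc25a24, -0.78 to 0.62 for Slc25a1 and -0.27 to 0.42 for Slc25a4. For each of these genes but Slc25a4 the interval excludes a difference as large as the short-term log2 change, and leaves room for smaller ones. The short-term change of Slc25a4 was small and not called, and its interval does not exclude it. These intervals are for the brightest probe set of each gene. Another Timm8a1 probe set had a log2 difference of -0.52 (SE 0.27), outside the interval printed for that gene, and was not called. Another Timm10b probe set, at -0.11, lay within the interval printed for Timm10b. Rats 61 and 62 gave both a control and a 6-week muscle. In each of these rats 30 of the 53 genes were lower in the tenotomised muscle, with medians of -0.02 (rat 61) and -0.07 (rat 62). Of all genes tested 50.5% and 50.1% were lower in these rats, so the count is near the share over all genes. At 6 weeks (2 arrays) 0 of the 53 genes were called (0% of all genes), with 2 of them and 472 of all genes at an unadjusted p under 0.05 by limma. The median difference from the control mean was -0.10 at 6 weeks, -0.02 at 16 weeks and 0.13 at 22 weeks, where the 16-week and 22-week values come from 1 array each. The 22-week array also had the lowest fibroblast and macrophage marker medians of the long-term arrays (-1.81 and -1.24).

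The 7 genes that did not pass the filter were Slc25a18 (a glutamate carrier), Slc25a21 (the oxodicarboxylate carrier), Slc25a27 (an uncoupling protein relative of brain), Slc25a31 (the ADP/ATP carrier of testis), Slc25a41 (an ATP-Mg and phosphate carrier), Slc25a53 and Timm8a2. Slc25a21 was at the floor of 9.69 signal units on all 14 arrays and Slc25a31 on 13. No change is given for these genes.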

How the data were processed

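Each of the 14 Affymetrix arrays held total RNA of 1 soleus muscle, labelled with biotin per the labels. The authors deposited 1 table of intensity values, linear MAS5 signals per the submitters' processing notes; the version and scaling target are not given in the sources used here. Array medians (29.8 to 49.3) differ on the deposited scale.

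Probe sets were named through GEO's platform annotation: 20826 carried 1 symbol, 436 several and 9780 none, and 57 control probe sets were left out. Signals were taken to log2. With arrays at a common median of all probe sets, the floor was set at the pooled 25th percentile (9.69 signal units), and a gene was tested if it exceeded the pooled 40th percentile (22.0) on at least 4 arrays. Each gene was read from its brightest probe set on average. Each array was then shifted to a common median of the 11064 genes tested and the floor applied again; these are the scaled signals printed, which are not comparable between genes.

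limma 3.58.1 (R 4.3.3; lmFit, and eBayes with an intensity trend) fitted a mean per group over all 14 arrays, and for weeks 1, 2 and 6 a mean per time point, so that weeks with 1 array borrow their spread from the others. P-values were adjusted over all genes tested by the Benjamini-Hochberg method, and a gene is called at an adjusted p under 0.05. A printed 95% interval comes from the same fit and is for 1 gene. Further probe sets were tested beside all genes.

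Genes with full values were those with the largest changes among the ones called under all 6 scalings without overlap, up to 10 in each direction, and a fixed list of core subunits; the rest are given by role. The genes, lists and markers were chosen with earlier results of these data known. Rats 61 and 62 gave 2 muscles each, and same-rat control and 6-week deviations correlated at 0.42 and 0.22 (-0.08 and -0.03 between the rats), so the rat was also fitted as a random block. Replicate numbers follow the order of deposit and pair nothing. Alternatives were the scaling, floor, filter, probe sets, variance prior, arrays in the fit and leaving out each array. Leaving out the week 1 arrays, and the arrays with the highest poly-A signal, was chosen after seeing the data. The number of arrays limits the precision.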

Additional observations from a re-analysis of the deposited data

Results flagged for a closer look

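In 13 of 159 sets of arrays (1 gene in 1 group) a single array stood apart by Dixon's test of the gap to the nearest array over the range of the group, and chance gives about 1 in 20. No explanation was tested for any of them.

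Slc25a25, an ATP-Mg and phosphate carrier, stood apart on control replicate 2, with a signal of 492 against 151 on the nearest array (gap 0.982 of the range), and on long-term replicate 3, with 544 against 149.6 on the nearest array (gap 0.920 of the range). Slc25a33, the pyrimidine nucleotide carrier, was low on control replicate 4, with 152 against 364 on the nearest array (gap 0.881 of the range), and high on long-term replicate 3, with 379 against 225 on the nearest array (gap 0.866 of the range). Long-term replicate 3 was also low for Tomm34, with 234 against 285 on the nearest array (gap 0.939 of the range).

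Long-term replicate 4, the 22-week muscle, was high for Timm21, with 1888 against 1307 on the nearest array (gap 0.976 of the range), and for Slc25a46, with 2886 against 1628 on the nearest array (gap 0.935 of the range). Control replicate 2 was high for Slc25a38, with 134 against 101 on the nearest array (gap 0.951 of the range), and low for Timm29, with 699.5 against 841 on the nearest array (gap 0.865 of the range). Control replicate 4 was high for Slc25a16, with 318 against 200.2 on the nearest array (gap 0.903 of the range). In the short-term group, replicate 4 was low for Slc25a14, with 59.9 against 76.0 on the nearest array (gap 0.678 of the range), and replicate 5 was low for Slc25a23, with 41.0 against 71.1 on the nearest array (gap 0.808 of the range). Slc25a48 was at the floor on long-term replicate 1, with 9.69 against 23.6 on the nearest array (gap 0.868 of the range).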

How the results depend on the processing

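Over 27 settings, 303 of 316 counts of genes called stayed within 1.5 times the main count. These include long-term against control and 6 weeks against control. Their counts were 0 in the fit, under each scaling and with each array left out, so they say nothing about the stability of the other counts. At 1 week 1 gene was called higher on the deposited scale and 1 with all probe sets at a common median, where 27 were called lower. Of all 11064 genes, 523 and 683 were higher under these scalings, against 1047 in the fit. Under the second, 3182 of all genes were lower, against 1546 in the fit. At 2 weeks 4 were higher with a common 2% trimmed mean, 4 with the mean of all probe sets of a gene, and 39 lower on the deposited scale. Of all genes, 2223 were higher with the trimmed mean, against 1796 in the fit. On the deposited scale 4473 of all genes were lower, against 2419 in the fit. With each array left out in turn, short-term against control gave 24 to 30 genes lower and 3 to 5 higher (5 without control replicate 2), long-term against short-term 23 to 29 higher and 2 to 4 lower, 1 week 5 to 18 lower and 0 to 3 higher (0 without short-term replicate 1, 1 without replicate 2), and 2 weeks 12 to 27 lower and 2 to 4 higher (4 without control replicate 2). Of 31 short-term calls 25 held whichever array was left out, and of 29 between long-term and short-term 25. With the replicate block (rat as a random block, correlation 0.49) no call was lost, 2 were gained in short-term against control (Slc25a25 and Slc25a36) and 3 in long-term against short-term (Slc25a25, Timm13 and Tomm40). The mean of all probe sets of a gene turned Timm29 to 0.59 (limma adjusted p = 0.038) in short-term against control and to -0.31 (limma adjusted p = 0.259) in long-term against short-term, and with it Slc25a32 lost its call in both comparisons and Slc25a44 in the second (0.36, limma adjusted p = 0.0553). Without the week 1 arrays 31 genes were lower and 3 higher in short-term muscle, and without the 2 arrays of highest poly-A signal 32 and 3. None of the 53 genes was called between long-term and control muscle under these settings. Counts over all genes are not given for settings other than the scalings, so changed counts there are no result about the 53. Causes were not tested. The small number of arrays and weeks with 1 array limit every value.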
